A study of Homo sapiens with 84 samples.

Results

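The expression of 9 genes of the complement system was followed through RNA-seq of EGFR-stimulated carcinoma cells: the components C5, C3, CFB, C1S and C1R, the secreted inhibitor SERPING1, and the membrane regulators CD46, CD55 and CD59. They were taken by name, as the rows of the count files whose Ensembl identifiers carry these symbols, and they are 9 of 58395 genes. The group was chosen by the fall of the C5 level in Kyse30 cells with EGFhigh at 72 h, known from an earlier reading of these data, and its other genes by their place in the pathway. Values came from 63 of 84 libraries, 43 of Kyse30 cells (esophageal squamous cell carcinoma) and 20 of FaDu cells (pharyngeal squamous cell carcinoma, replicates 3 and 4 only). All cells were serum-starved. They were left untreated or received EGFlow (1.8 nM EGF), EGFhigh (9 nM EGF), EpEX (the extracellular domain of EpCAM fused to an immunoglobulin Fc region), EGFhigh with EpEX, or the Fc region alone, and were collected after 6 h or 72 h, with untreated cells also at 0 h. Untreated cells were the controls for EGF, and Fc-treated cells the controls for EpEX. Kyse30 groups held 3 or 4 libraries each and FaDu groups 1 or 2. Each line is 1 established carcinoma culture, without the hepatocytes and immune cells that make most complement in the body.

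Complement is a cascade of plasma and locally made proteins that tags and lyses cells. C1R and C1S are the proteases of the classical pathway, CFB is the protease-bearing factor of the alternative pathway, C3 is the component on which the pathways converge, and C5 is cleaved to start the membrane attack complex. SERPING1 (C1 inhibitor) blocks C1R and C1S. Nucleated cells shield themselves with CD46 (cofactor for cleavage of C3b and C4b), CD55 (which speeds decay of the convertases) and CD59 (which blocks assembly of the attack complex), and carcinomas commonly carry these 3 regulators.

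Read totals ranged from 1944948 to 11759799 per library in Kyse30 and from 6217938 to 12442349 in FaDu replicates 3 and 4. Levels are given as CPM, a gene's reads relative to its library's total, scaled within each line by TMM, and were compared between conditions for each gene, never between genes. In both lines 12 of 12 squamous epithelium markers were detected, with a summed level of 8489 to 24679 CPM in Kyse30 and 2694 to 5579 CPM in FaDu. KRT14 and PKP1 had medians under 1 CPM in Kyse30. The 10 immune markers summed to at most 13.97 CPM in Kyse30 and 5.48 CPM in FaDu, and none had a median of 1 CPM; the 7 hepatocyte markers summed to at most 1.39 CPM and 0.994 CPM. COL1A1 and COL1A2 led the 8 fibroblast markers in Kyse30, which summed to 10.2 to 46.2 CPM.

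Of the 9 genes, 5 carried enough reads in Kyse30 to be read condition by condition, as plotted for C5, C3, CD46, CD55 and CD59. CD46, CD55 and CD59 were present in every library of both lines. CFB, C1R, C1S and SERPING1 gave at most 38 counts in a Kyse30 library, and many of their values were at or under 3 counts, taken as the floor. Of the 9, 7 passed the filter on low counts in Kyse30 (all but C1S and SERPING1), as did 7 in FaDu (all but CFB and SERPING1). A gene counted as changed at an adjusted p of at most 0.05 with an absolute log2FC over 0.5 (edgeR quasi-likelihood test, adjusted over all genes tested), and all adjusted p values below are from that test. The labels do not say whether replicates were separate cultures, so p values measure the spread between these libraries. In bulk RNA, fewer cells expressing a gene and less RNA per cell cannot be told apart.

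**Figure D1:**
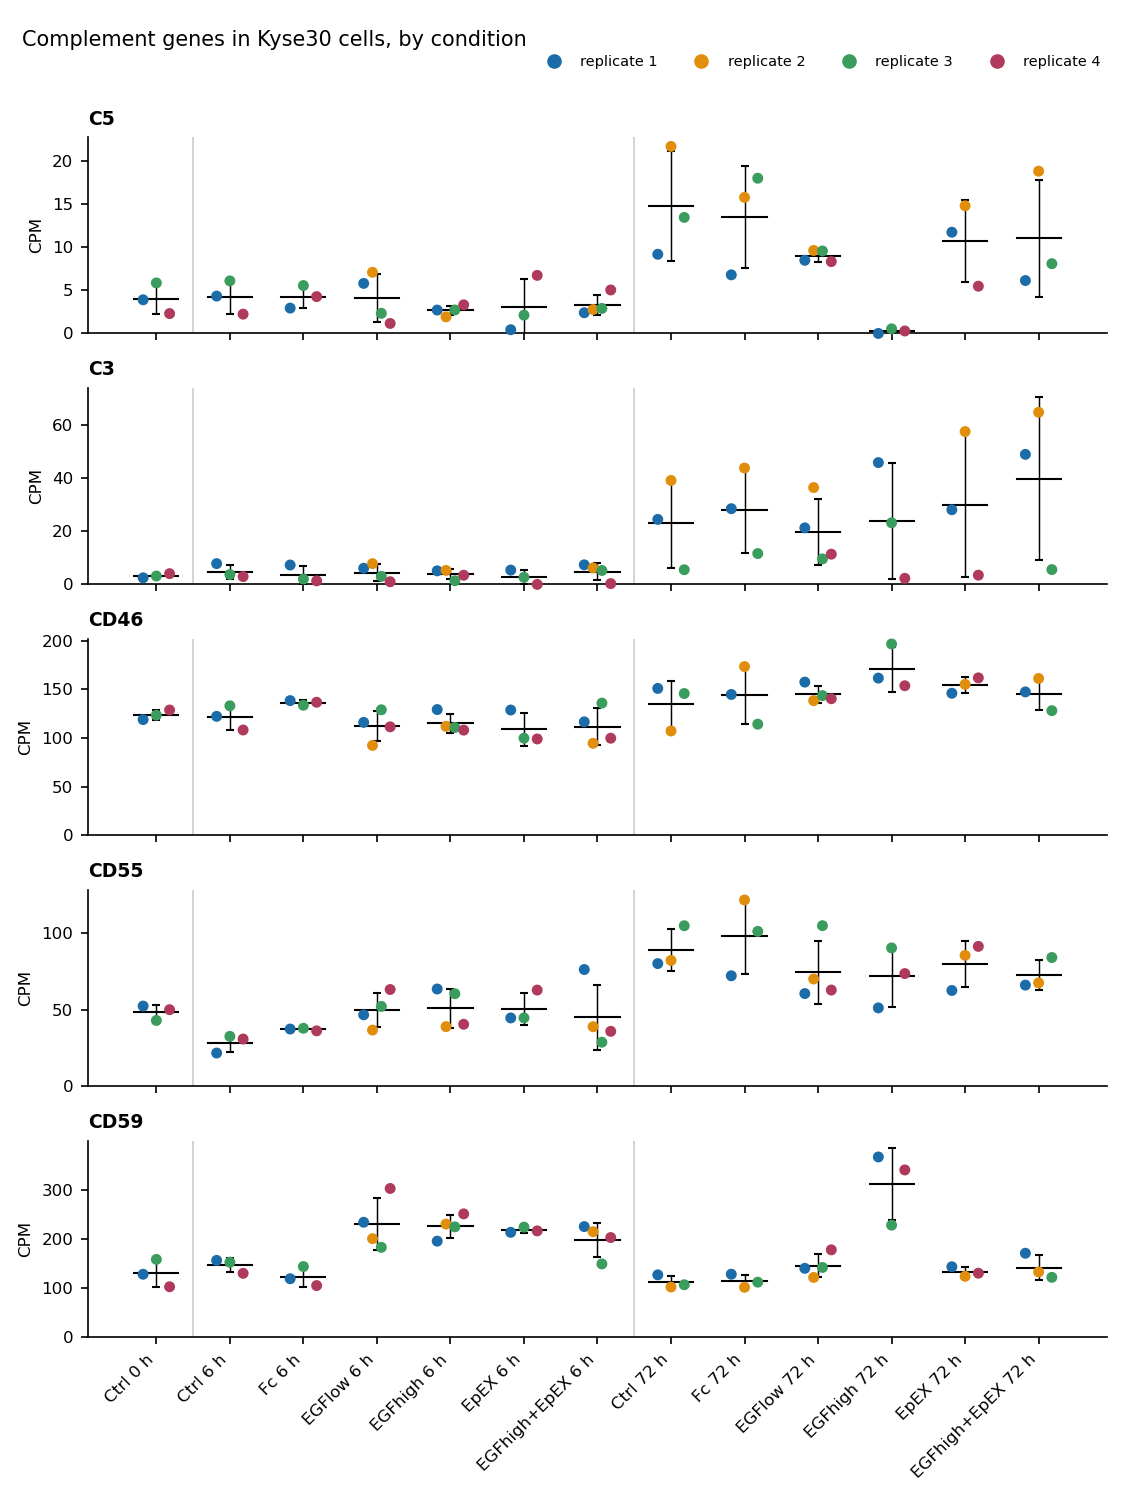
Level of 5 complement genes (CPM, linear axes from 0) in each Kyse30 library, by condition; points are libraries coloured by replicate number, horizontal lines are group means and bars the SD. C5 lay between 0 and 0.534 CPM in EGFhigh cells at 72 h against 5.49 to 21.7 CPM in the other 72 h libraries. CD59 was highest by mean in EGFhigh cells at 72 h (228 to 367 CPM), overlapping EGFlow cells at 6 h (183 to 303 CPM). C3 at 72 h spread from 2.28 to 64.7 CPM.

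The promoters of 3 of the genes are shown because the results below turn on them: CD55 and CD59 rose together in FaDu cells, and C5 ranged from 0 to 21.7 CPM across Kyse30 libraries. Each window runs from 250 bases before to 50 bases after a RefSeq transcript start (GRCh38.p14, 5′ to 3′ on the gene's strand), taking the start nearest to that of the GENCODE gene. RefSeq windows matched 6 of the 9 symbols. Capitals mark matches, on either strand, to the motifs searched: STAT, EGR1, AP-1, ETS, the TATA box, CArG and kB. No matches overlapped.
CD59, chr11:33736430-33736729, minus strand: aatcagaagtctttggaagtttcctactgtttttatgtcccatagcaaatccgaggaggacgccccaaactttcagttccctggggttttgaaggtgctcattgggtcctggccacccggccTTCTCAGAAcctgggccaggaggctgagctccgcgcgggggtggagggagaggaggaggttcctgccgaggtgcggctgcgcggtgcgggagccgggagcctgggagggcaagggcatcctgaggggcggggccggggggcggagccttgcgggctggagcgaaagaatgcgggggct
CD55, chr1:207321428-207321727, plus strand: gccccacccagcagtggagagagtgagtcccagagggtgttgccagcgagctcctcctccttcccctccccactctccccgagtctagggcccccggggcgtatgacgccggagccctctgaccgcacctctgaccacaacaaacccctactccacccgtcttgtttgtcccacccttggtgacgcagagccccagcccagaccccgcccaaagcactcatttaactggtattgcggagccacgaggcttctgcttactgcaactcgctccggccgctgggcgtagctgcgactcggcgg
C5, chr9:121050226-121050525, minus strand: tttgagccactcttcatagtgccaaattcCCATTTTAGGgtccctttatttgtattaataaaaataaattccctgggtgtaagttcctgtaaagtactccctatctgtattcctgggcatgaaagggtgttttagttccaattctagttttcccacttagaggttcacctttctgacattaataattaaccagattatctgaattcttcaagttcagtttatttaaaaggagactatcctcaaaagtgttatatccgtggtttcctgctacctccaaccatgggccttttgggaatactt
The CD59 window held 1 match to the STAT motif TTCNNNGAA (128 bases before the start), present in 7.66% of 35116 promoters. The C5 window held 1 CArG match (CCATTTTAGG), present in 1.29% of promoters, and the CD55 window held none of the 7 motifs. The AP-1 motif TGACTCA was present in 4.95% of promoters and in none of these 3 windows. The same held for the ETS motif CCGGAAG (10.3% of promoters) and the EGR1 motif GCGTGGGCG (0.795%). The TATA box was searched as TATAAA (11.5%), and the kB consensus was present in 11.3%; neither was in these 3 windows. The CD55 and CD59 windows were 65% and 64.3% G+C, with 19 and 18 CG dinucleotides, and the C5 window was 37% G+C with 1.

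CD59, the inhibitor of the membrane attack complex (ENSG00000085063, GRCh38 chr11:33703010-33736491, minus strand), rose in FaDu cells within 6 h of each ligand given alone. Untreated FaDu cells at 6 h had 43.6 and 49.7 CPM, EGFhigh cells 130.0 and 124 CPM, and EGFlow cells 126 and 144 CPM. Fc-treated cells had 49.8 and 35.9 CPM, and EpEX-treated cells 113 and 147 CPM. All 6 ligand-treated libraries lay above all 4 controls; groups did not overlap for 40.8%, 42.8% and 39.8% of genes in the EGFhigh, EGFlow and EpEX comparisons. The log2FC was 1.44 (SE 0.22, adjusted p = 0.00084) for EGFhigh, 1.53 (SE 0.22, adjusted p = 0.000457) for EGFlow and 1.60 (SE 0.22, adjusted p = 0.000303) for EpEX, which are 2.72-fold, 2.89-fold and 3.04-fold differences in mean level. The single library treated with EGFhigh and EpEX for 6 h had 67.2 CPM, lower than the other ligand-treated libraries and above the controls. These calls rest on replicates 3 and 4. With all FaDu libraries in the fit, 0 of 18533 genes were called in each of these 3 comparisons, members included. The log2FC of CD59 turned to -0.80, -0.64 and -1.12 in that fit. Exons of CD59 overlap the locus AL049629.2 on the same strand, so part of its count is uncertain.

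CD55, the decay-accelerating factor (ENSG00000196352, chr1:207321376-207386804, plus strand), rose beside it. Untreated FaDu cells at 6 h had 122 and 113 CPM, EGFhigh cells 179 and 223 CPM, and EGFlow cells 219 and 245 CPM. Fc-treated cells had 118 and 113 CPM and EpEX-treated cells 209.8 and 307 CPM, so that ligand and control libraries did not overlap. The log2FC was 0.77 (SE 0.19, adjusted p = 0.0322) for EGFhigh, 0.98 (SE 0.19, adjusted p = 0.00633) for EGFlow and 1.16 (SE 0.19, adjusted p = 0.0014) for EpEX. In each of these 3 comparisons, CD55 and CD59 were the members called, 2 of 7 tested, against 3.06%, 3.45% and 3.50% of 16022 genes called in either direction. The median log2FC of the 7 members was 0.24, -0.32 and 1.60, against -0.01, -0.02 and -0.01 over all genes. With EpEX this median was the value of CD59 itself. The members above it were C3, C1S and C1R, with 4, 8 and 9 summed counts against 1, 1 and 2 with Fc. Nothing is read from that median. CD55 lost its call for EGFhigh, and for EGFlow, when untreated replicate 3, untreated replicate 4 or the ligand's replicate 4 was left out, which leaves 1 library in a group, assumed to vary like the others (log2FC 0.60 to 0.82 for EGFhigh and 0.89 to 1.03 for EGFlow). The calls of both genes for EpEX held without each library.

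At 72 h in FaDu cells, both regulators were higher in cells given EGFhigh with EpEX than in Fc-treated cells. CD59 was 94.02 and 136 CPM against 52.2 and 42.3 CPM (log2FC 1.28, SE 0.22, adjusted p = 0.00739). CD55 was 44.6 and 42.0 CPM against 19.1 and 21.7 CPM (log2FC 1.08, SE 0.20, adjusted p = 0.0135). These were 2 of 7 members tested, against 0.818% of genes called and 41.1% without overlap. Without EGFhigh+EpEX replicate 3, CD59 kept its call and CD55 did not (log2FC 1.06). Without EGFhigh+EpEX replicate 4, Fc replicate 3 or Fc replicate 4, neither did (log2FC 1.00, 1.44 and 1.14 for CD59, and 1.14, 1.00 and 1.18 for CD55). With all FaDu libraries neither was called (log2FC 0.16 for CD59 and 0.43 for CD55), where 0 of 18533 genes were. The remaining 72 h treatments were single libraries. The untreated library had 42.6 CPM of CD59 and 14.6 CPM of CD55, the EGFhigh library 214 and 67.1 CPM, the EGFlow library 114 and 53.3 CPM, and the EpEX library 54.6 and 20.2 CPM. Both EGF doses thus stood above the untreated library for both genes, with no replicate check.

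**Figure D2:**
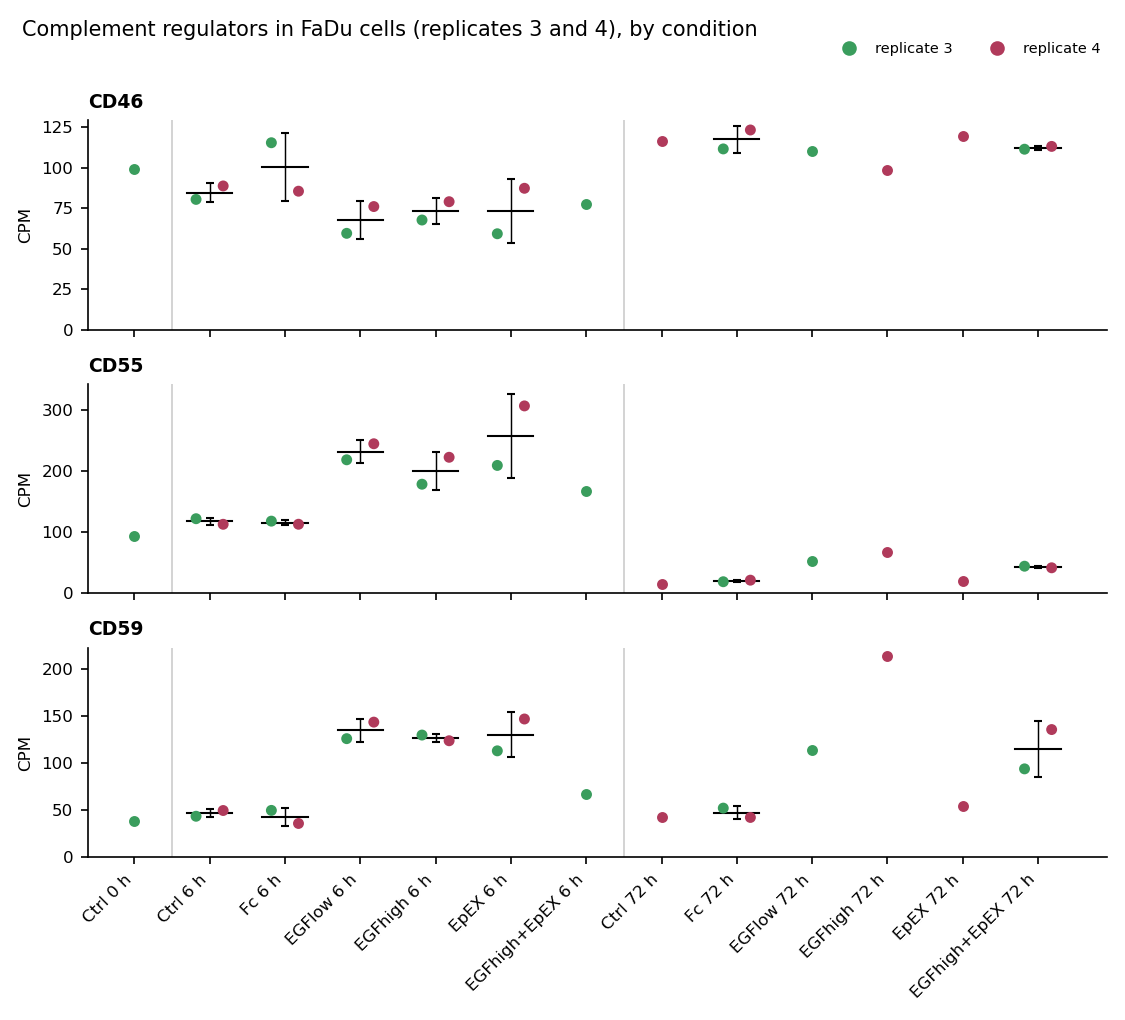
Level of the 3 membrane regulators (CPM, linear axes from 0) in each FaDu library of replicates 3 and 4, by condition; points are libraries, lines and bars are the mean and SD where a group has 2 libraries. CD59 was 113 to 147 CPM after 6 h of a single ligand against 35.9 to 49.8 CPM in controls, and CD55 was 14.6 to 67.1 CPM at 72 h against 113 to 307 CPM at 6 h.

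In Kyse30 cells, the CD59 level lay above the control with every ligand at 6 h. Untreated cells had 156, 153 and 130.1 CPM, EGFhigh cells 196, 230.3, 225 and 251.04 CPM, and EGFlow cells 234, 201, 183 and 303 CPM. Fc-treated cells had 119, 144 and 105 CPM, EpEX-treated cells 213, 224 and 216 CPM, and cells given both EGFhigh and EpEX 225, 215, 149 and 203 CPM. No ligand-treated library lay below a library of its own control group, where 15.3%, 13.7%, 13.2% and 15.1% of genes had groups without overlap for EGFhigh, EGFlow, EpEX and EGFhigh with EpEX. The log2FC was 0.62 (SE 0.19, adjusted p = 0.0659) for EGFhigh, 0.65 (SE 0.19, adjusted p = 0.0686) for EGFlow and 0.83 (SE 0.20, adjusted p = 0.0933) for EpEX, none of which passed, and 0.69 (SE 0.19, adjusted p = 0.0265) for EGFhigh with EpEX, which did. Thus 0, 0, 0 and 1 of 7 members were called, against 2.55%, 1.50%, 0.0261% and 4.52% of 15350 genes. At an unadjusted p under 0.05 the members numbered 2, 2, 1 and 1, where 2338, 2100, 1451 and 2942 of all genes did. DESeq2 called CD59 and CD55 for EGFhigh and CD59 for EGFlow and for EpEX. Deviations of same-numbered replicates correlated weakly in the EpEX and EGFhigh with EpEX comparisons (r of 0.116 to 0.129 and 0.108 to 0.120). With the replicate number as a block CD59 was called for EpEX (log2FC 0.83, adjusted p = 0.0428), where the calls over all genes went from 4 to 48. For EGFhigh with EpEX the calls over all genes went from 694 to 1091. Without EGFhigh+EpEX replicate 1, Fc replicate 1 or Fc replicate 4, the CD59 call for EGFhigh with EpEX was lost (log2FC 0.66, 0.67 and 0.63). The response of CD59 to EGFhigh at 6 h was not shown to differ between the lines: the difference in log2FC, Kyse30 minus FaDu, was -0.79 (SE 0.32, unadjusted p = 0.0161, adjusted p = 0.945), and 12 of 19634 genes (0.0611%) were called for that difference.

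CD55 in Kyse30 cells at 6 h was 21.7, 32.6 and 30.8 CPM untreated, against 63.5, 38.9, 60.4 and 40.5 CPM with EGFhigh and 46.6, 36.7, 52.1 and 63.2 CPM with EGFlow. The ligand-treated libraries were all above the untreated ones. Its log2FC was 0.83 (SE 0.27, adjusted p = 0.087) and 0.80 (SE 0.27, adjusted p = 0.124), short of the threshold. With EpEX it was 44.6, 44.6 and 62.8 CPM against 37.4, 37.9 and 36.2 CPM with Fc (log2FC 0.44, SE 0.28, adjusted p = 0.665). With EGFhigh and EpEX together, 1 library reached 76.2 CPM and the other 3 were 28.8 to 38.9 CPM, overlapping Fc.

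**Figure D3:**
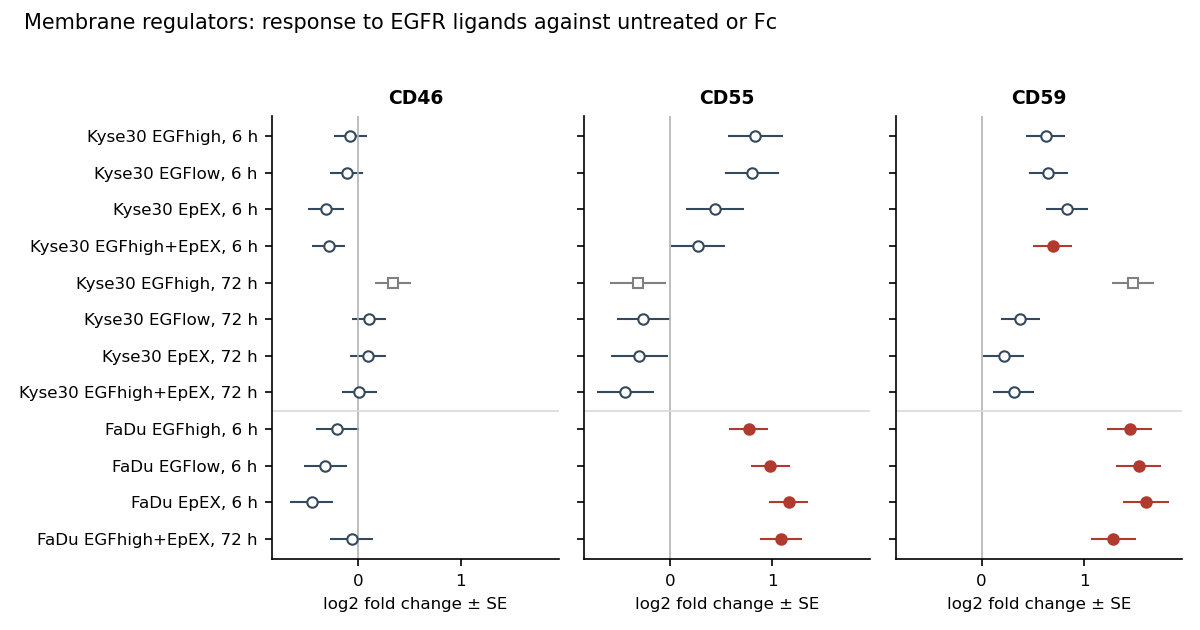
Response of CD46, CD55 and CD59 to each ligand (log2 fold change against untreated cells for EGF and against Fc for EpEX and the combination, with bars of 1 SE). Filled red points passed the threshold, open circles did not, and grey squares mark the EGFhigh comparison at 72 h in Kyse30, given as a description. Apart from that comparison, the log2FC of CD59 ran from 0.22 to 1.60, in comparisons that partly share control groups. FaDu values are of replicates 3 and 4. With all FaDu libraries in the fit, CD59 at 6 h turned to -0.80 (EGFhigh), -0.64 (EGFlow) and -1.12 (EpEX).

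At 72 h, the EGFhigh comparison in Kyse30 was used in choosing these genes, so its values are described without a test. CD59 was 367, 228 and 340.5 CPM with EGFhigh, above the untreated cells at 127, 102 and 107 CPM (log2FC 1.48, SE 0.20). C5 was 0, 0.534 and 0.285 CPM, below the untreated cells at 9.20, 21.7 and 13.5 CPM (log2FC -5.80, SE 0.83). Values of CD59 and C5, 2 of 7 members, lay past the cut-offs, where 6.20% of genes did and 22.9% had groups without overlap; the choice of the genes bears on that count, and nothing is read from it. EGFlow, whose comparison shares the untreated libraries, did not separate CD59: 140.2, 122, 142 and 178 CPM, log2FC 0.38 (SE 0.19, adjusted p = 1). EpEX and EGFhigh with EpEX against Fc rest on other libraries, and CD59 was 143, 124 and 130.3 CPM and 171, 133 and 122 CPM, against 128, 102 and 112 CPM with Fc (log2FC 0.22, SE 0.20, and 0.31, SE 0.20, adjusted p = 1 for both). In these 3 comparisons 0 of 7 members and 0 genes in all were called by edgeR (0% of genes; 440, 554 and 601 genes at an unadjusted p under 0.05, none of them a member), and DESeq2 called no member and 0, 2 and 0 genes. Cells given EGFhigh with EpEX had 0.455 times the mean CD59 level of cells given EGFhigh alone, and their C5 level was 6.15, 18.9 and 8.10 CPM (182 counts in all).

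C5 (ENSG00000106804, chr9:120952335-121050276, minus strand), the component cleaved to start lysis, had its highest levels at 72 h in Kyse30 cells. At 0 h and 6 h it was 0.436 to 7.10 CPM in 24 libraries, with a median of 2.93 CPM. At 72 h without EGFhigh alone it was 5.49 to 21.7 CPM in 16 libraries, with a median of 9.61 CPM. The 3 EGFhigh libraries at 72 h held 0, 3 and 2 counts, at or under the floor. Summed over the group, the 5 counts amount to 0.218 CPM before TMM scaling (95% Poisson interval 0.0707 to 0.508, counting error only). The untreated libraries held 279 counts, or 13.7 CPM on the same scale, given as a description because the genes were chosen by this fall. EGFlow cells had 8.50, 9.64, 9.58 and 8.35 CPM. The order of the conditions by mean ran from untreated (14.8 ± 6.37 CPM, SD, n = 3) through Fc, EGFhigh with EpEX, EpEX and EGFlow at 72 h (9.02 ± 0.689 CPM, n = 4), each overlapping the next. All of these were above the 0 h and 6 h groups by mean. EGFhigh at 72 h came last (0.273 ± 0.267 CPM, n = 3), below EGFhigh at 6 h without overlap, although 1 EpEX library at 6 h, at 0.436 CPM, fell within its range.

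The rise of C5 with time did not pass the test. Fc-treated cells went from 2.95, 5.57 and 4.28 CPM at 6 h to 6.81, 15.8 and 18.03 CPM at 72 h (log2FC 1.66, SE 0.63, adjusted p = 0.161), with no overlap, as for 17.8% of genes. Untreated cells, whose 72 h libraries are those of the EGFhigh comparison, gave a log2FC of 1.79 (SE 0.62, adjusted p = 0.149). None of the 6 h treatments separated C5 from its control, with log2FC from -0.68 to -0.03 and adjusted p of at least 0.676. In FaDu cells C5 was at or under 3 counts in 11 of 20 libraries and reached at most 3.34 CPM.

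CD55 moved with time in opposite directions in the 2 lines. In Kyse30, Fc-treated cells had 37.4, 37.9 and 36.2 CPM at 6 h and 72.1, 122 and 101 CPM at 72 h (log2FC 1.40, SE 0.28, adjusted p = 0.00378). Untreated Kyse30 cells went from 21.7, 32.6 and 30.8 CPM to 80.1, 82.2 and 105 CPM (log2FC 1.64, SE 0.28, adjusted p = 0.000742). In FaDu, Fc-treated cells went from 118 and 113 CPM to 19.1 and 21.7 CPM, and CD55 fell by 2.51 on the log2 scale (SE 0.21, adjusted p = 1.61e-06). No 6 h and 72 h libraries overlapped in any of these, as for 17.8%, 20.7% and 48.5% of genes. The difference between the lines in the change under Fc was 3.93 on the log2 scale (SE 0.42, adjusted p = 9.24e-09), and 0.392% of 19634 genes were called for that difference. CD55 was the 1 member called in each of these 4 comparisons, of 7 tested in Kyse30 (2.25% of genes called under Fc, 1.55% untreated), 7 in FaDu (2.88%) and 8 in the fit over both lines. The calls within each line held without each library. With all FaDu libraries in the fit those in FaDu and between the lines were lost (log2FC -1.16 and 2.58). There, 0 of 18533 and 0 of 19519 genes were called. The untreated level in Kyse30 was also lower at 6 h than at 0 h, where it was 52.3, 42.96 and 50.01 CPM, although 0 genes (0%) were called between these times by edgeR (355 at an unadjusted p under 0.05) or by DESeq2. CD55 was the 1 member at an unadjusted p under 0.05 there (log2FC -0.77, SE 0.28, unadjusted p = 0.00888, adjusted p = 1).

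**Figure D4:**
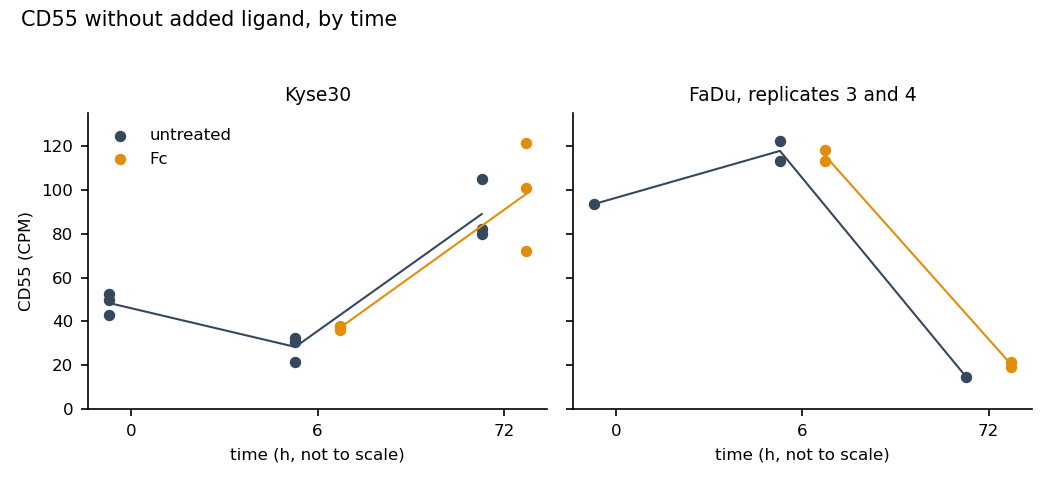
CD55 level (CPM) in untreated and Fc-treated cells at 0 h, 6 h and 72 h; points are libraries and lines join group means, with time not drawn to scale. In Kyse30 the level rose from 21.7 to 37.9 CPM at 6 h to 72.1 to 122 CPM at 72 h, and in FaDu it fell from 113 to 122 CPM to 14.6 to 21.7 CPM.

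Every Kyse30 condition at 72 h had more CD55 by mean than any condition at 0 h or 6 h. The order ran from Fc (98.3 ± 24.9 CPM, SD, n = 3) to EGFhigh (71.7 ± 19.6 CPM, n = 3) at 72 h, then down to untreated cells at 6 h (28.4 ± 5.85 CPM, n = 3), and the last step, from Fc to untreated cells at 6 h, was the one without overlap. At 72 h CD55 was not called for the 3 treatments tested in Kyse30: EGFlow, EpEX and EGFhigh with EpEX had log2FC of -0.26, -0.30 and -0.44 (SE 0.26, 0.28 and 0.28, adjusted p = 1 for each).

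CD46, the cofactor (ENSG00000117335, chr1:207752057-207795513, plus strand), was called in none of the 23 comparisons by the main edgeR fit. Between the lines it was called by DESeq2 and in some alternative edgeR fits. It ranged from 92.5 to 197 CPM in Kyse30 and from 59.1 to 123 CPM in FaDu. Its log2FC lay between -0.45 and 0.49, with an SE of 0.16 to 0.28. In FaDu at 6 h it was 80.3 and 88.6 CPM untreated, 67.6 and 78.9 CPM with EGFhigh and 59.4 and 75.9 CPM with EGFlow, and its log2FC of -0.21, -0.32 and, for EpEX, -0.45 were opposite in sign to those of CD55 and CD59 (adjusted p = 0.724, 0.505 and 0.344).

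C3 (ENSG00000125730, chr19:6677704-6730562, minus strand), the central component, was detected in Kyse30, and its level at 72 h was mostly higher in replicates 1 and 2 than in replicates 3 and 4. At 6 h it was 0 to 7.81 CPM in 21 libraries, and at 72 h 2.28 to 64.7 CPM in 19. The 72 h libraries of replicates 1 and 2 held 21.2 to 64.7 CPM (11 libraries, median 39.1 CPM), and those of replicates 3 and 4 held 2.28 to 23.2 CPM (8 libraries, median 7.57 CPM). At 6 h the ranges were 5.09 to 7.81 CPM in 9 libraries of replicates 1 and 2 and 0 to 5.23 CPM in 12 of replicates 3 and 4. The ranges overlapped slightly at both times. What the numbers stand for is not in the labels, and this split was noticed in the data and not tested. Fc-treated cells had 7.29, 2.004 and 1.33 CPM at 6 h (replicates 1, 3 and 4) and 28.5, 43.7 and 11.6 CPM at 72 h (replicates 1, 2 and 3), which gave a log2FC of 2.96 (SE 0.94, adjusted p = 0.0835). Within replicate 1 C3 was higher at 72 h than at 6 h in Fc-treated cells, as it was within replicate 3. The untreated comparison gave 2.27 (SE 0.90, adjusted p = 0.231). Leaving out 1 library at a time gave 2.49 to 4.08 under Fc and 1.66 to 2.78 untreated, with no call. No ligand separated C3 from its control at 72 h: EGFlow, EpEX and EGFhigh with EpEX had log2FC of -0.22, 0.09 and 0.50, each with an SE of 0.78 to 0.84 (adjusted p = 1).

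**Figure D5:**
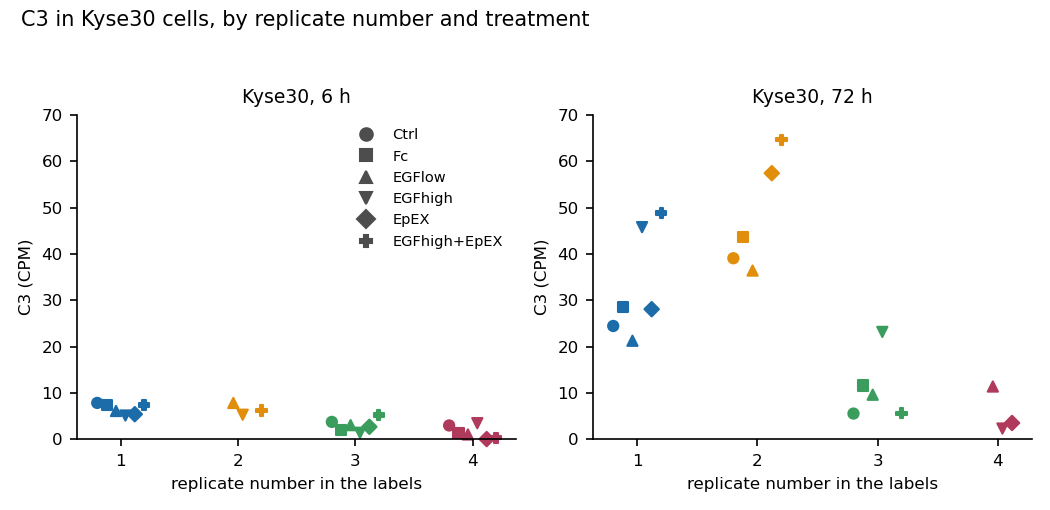
C3 level (CPM, both axes to the same scale) in Kyse30 libraries at 6 h and 72 h, by the replicate number in the labels; marker shapes stand for treatments. At 72 h replicates 1 and 2 were 21.2 to 64.7 CPM and replicates 3 and 4 were 2.28 to 23.2 CPM, across all treatments.

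The remaining 4 genes gave few reads. CFB was at 0 in 19 of 43 Kyse30 libraries and at or under 3 counts in 29. It reached 4.50 CPM at 72 h (EGFhigh with EpEX, replicate 2) and 1.04 CPM at 0 h or 6 h, and 11 of 19 libraries at 72 h exceeded 3 counts against 3 of 24 earlier. CFB (ENSG00000243649, chr6:31945650-31952084, plus strand) shares exon sequence with C2 on the same strand, so its count is uncertain. C1R was at or under 3 counts in 22 of 43 Kyse30 libraries. It was highest at 72 h in EGFhigh cells (4.43, 2.67 and 2.57 CPM, against 0.743, 0 and 0.204 CPM untreated) and in EpEX cells (1.65, 1.36 and 4.39 CPM, against 0.187, 0 and 1.29 CPM with Fc; log2FC 2.44, SE 1.56, adjusted p = 1). C1R (ENSG00000159403, chr12:7080199-7092607, minus strand) overlaps exons of C1RL, and C1S (ENSG00000182326, chr12:6988259-7071032, plus strand) those of EMG1. C1S was at or under 3 counts in 35 of 43 Kyse30 libraries, with at most 1.98 CPM. SERPING1 (ENSG00000149131, chr11:57597387-57614853, plus strand) was at 0 in 42 of 43, with 8 counts in the remaining one. In FaDu, C3 was at or under 3 counts in 15 of 20 libraries, CFB in 18, C1S in 11, C1R in 11 and SERPING1 in 18. None of the 4 was called by edgeR in any comparison in which it was tested, and SERPING1 was tested in none.

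Between the lines, untreated at 6 h, 3 of 8 members tested were called, where 22.4% of 19634 genes were. CD59 was higher in Kyse30 (log2FC 1.62, SE 0.24, adjusted p = 6.45e-07), and CD55 was lower (log2FC -2.08, SE 0.28, adjusted p = 4.61e-08). C3 had 97 counts in 3 Kyse30 libraries and 3 counts in 2 FaDu libraries, 25.5 times the CPM before TMM scaling (8.72 to 124 from the 95% Poisson interval of the 3 counts; log2FC 4.61, SE 1.46, adjusted p = 0.0157). CD46 had a log2FC of 0.49 (SE 0.20, adjusted p = 0.0761) and was called by DESeq2 and in some alternative edgeR fits. With all FaDu libraries none of the 3 was called, where 953 of 19519 genes were, and C3 and CD59 turned to -1.74 and -0.23.

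Of 52 other complement genes listed by role, most were too low to test: 11 passed the filter in Kyse30 and 12 in FaDu. CLU (clusterin, a soluble inhibitor of the attack complex) was the 1 of 12 called within FaDu, lower with EGFhigh and EpEX than with Fc at 72 h (46.8 ± 4.09 against 106 ± 6.68 CPM, n = 2, log2FC -1.17, SE 0.20, adjusted p = 0.00787). In that comparison 0.818% of 16022 genes were called. The CLU call was lost with all FaDu libraries in the fit, where 0 of 18533 genes were called. Between the untreated lines at 6 h, CLU (log2FC 1.87) and CSMD1, a membrane regulator at 6.57 ± 1.53 CPM in Kyse30 and 0 counts in FaDu, were higher in Kyse30, and CFD, the activating protease of the alternative pathway, was lower (log2FC -1.67). There 22.4% of 19634 genes were called.

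Genes of cytokine signalling, which controls complement genes in many tissues, were also counted. Of 23 listed and 21 tested in each line, 2 rose with EGFhigh in Kyse30 at 6 h: RELB (14.2 ± 4.77 to 47.3 ± 5.76 CPM, log2FC 1.73, SE 0.32, adjusted p = 0.00188) and the interferon gamma receptor chain IFNGR2 (log2FC 1.07, SE 0.30, adjusted p = 0.0452). RELB rose with EGFlow (log2FC 1.65), and RELB and NFKB2 with EGFhigh and EpEX (log2FC 2.28 and 1.65). With EpEX alone 0 of 21 were called in Kyse30. Of all genes, 2.55%, 1.50%, 4.52% and 0.0261% were called with EGFhigh, EGFlow, EGFhigh with EpEX and EpEX. In FaDu replicates 3 and 4, 5 of 21 rose with EGFhigh (RELB, NFKB1, NFKB2, NFKBIA and IFNGR2) and 4 with EGFlow (the same without NFKB2). With EpEX 5 rose, where IL1A and not NFKB1 joined the other 4. IL1A was 26.2 ± 26.8 CPM there against 2.41 ± 2.88 CPM with Fc (SD). RELB had log2FC of 3.04, 3.42 and 2.21. Of all genes, 3.06%, 3.45% and 3.50% were called in these comparisons. With all FaDu libraries in the fit 0 of 18533 were called in each. With time under Fc in Kyse30, STAT2, an interferon signal transducer, rose (log2FC 1.15, adjusted p = 0.0423) and IL6R fell by 1.33 on the log2 scale (adjusted p = 0.0074). NFKB1 fell by 0.77 on the log2 scale with time under Fc in FaDu (adjusted p = 0.0458). Of all genes, 2.25% were called with time under Fc in Kyse30 and 2.88% in FaDu. The NFKB1 call was lost with all FaDu libraries in the fit, where 0 of 18533 genes were called with time.

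Over the 13 Kyse30 condition means, the genes whose log2 CPM was most like that of each member were named by Pearson's r among 10261 genes, as a description of means that share libraries. The means include EGFhigh at 72 h, where the fall of C5 was used to choose the group, so nothing is read from the C5 matches. The closest genes were MARCKS (0.976), PPP2R2B (0.972) and LMO4 (0.972) for C5, and JUN (0.975), OPTN (0.975) and BTN3A1 (0.975) for C3. For CD55 they were ZFYVE21 (0.960), WDR27 (0.947) and IFI27 (0.935), for CD59 PYGB (0.955), KRT6A (0.954) and GNA15 (0.953), and for CD46 PLEKHA6 (0.963), TMEM159 (0.957) and NOTCH3 (0.957). The low counts of CFB and C1R gave IFI27 (0.969) and TMEM65 (0.854) as their closest genes. Only genes with a mean of at least 5 CPM could be named, which left out CFB, C1R, C1S and SERPING1. None of C5, C3, CD46, CD55 and CD59 was among the 3 closest genes of another member.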

How the data were processed

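The authors prepared QuantSeq 3′ FWD libraries; per the labels' processing notes, reads were aligned with STAR to GRCh38 and counted with HTSeq. The deposited values are raw read counts per Ensembl gene; versions, annotation release and strand setting are not given in the sources used here. Members and gene lists were chosen with earlier results of these data known. Symbols were matched through GENCODE 29 (58275 of 58395 genes). Rows of reads assigned to no gene were left out (not unique, 24.6 to 52.2% of the records HTSeq tallied per library; outside genes, 5.30 to 15.3%). edgeR 4.0.16 (TMM, filterByExpr with a minimum count of 10 and a minimum total of 15) fitted Kyse30, FaDu replicates 3 and 4, and both together; calls needed an Benjamini-Hochberg adjusted p no higher than 0.05 with a log2FC beyond 0.5 either way. SE is the log2FC divided by the square root of F. The 21 FaDu libraries of replicates 1 and 2 stand apart and entered 1 alternative only. The edgeR and DESeq2 tests were checked on simulated data for the change with time under Fc within each line. The other comparisons, the fit over both lines and the remaining alternatives were not simulated. Genes were named if called with a mean of at least 5 CPM in a group compared; a few are not reported here. Replicate numbers were taken as pairs where all 3 same-numbered pairs correlated over 0.1 in their deviations from the group means (lowest 0.116 for EpEX and 0.108 for EGFhigh with EpEX against Fc, Kyse30, 6 h). Counting intervals cover counting error only. Alternatives were DESeq2 1.42.0, RLE size factors, no filter, only the groups compared, a replicate block, all FaDu libraries, and leaving out each library.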

Additional observations from a re-analysis of the deposited data

Results flagged for a closer look

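CD55 changed with time under Fc in opposite directions in Kyse30 and in FaDu replicates 3 and 4, and the difference in log2FC between them, 3.93, was itself called. With all FaDu libraries in the fit that call was lost (log2FC 2.58), where 0 of 19519 genes were called.

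A further 4 values, all of low counts, lay far from the other 3 libraries of their Kyse30 group: CFB at 0.497 CPM (EGFlow 6 h, replicate 4), C1S at 0.702 CPM (EGFhigh 6 h, replicate 2), C1R at 3.395 CPM (EGFhigh 6 h, replicate 1) and SERPING1 at 1.03 CPM (EGFlow 72 h, replicate 1). Chance marks about 1 in 20 groups, and 33 groups were tested. That rate need not hold here: the other libraries of the CFB and SERPING1 groups held 0 counts, so any read stands apart. The 4 values rest on 3, 4, 10 and 8 counts.

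In the FaDu libraries of replicates 1 and 2, used in the report only in the alternative over all FaDu libraries, 8 of the 9 genes exceeded every library of replicates 3 and 4 at least once. The highest levels, scaled over all FaDu libraries, were C3 at 82.6 CPM (EpEX 72 h), C1S at 39.7 CPM (EGFhigh 72 h), C1R at 31.1 CPM (EGFlow 72 h), SERPING1 at 22.5 CPM (EpEX 72 h), C5 at 10.3 CPM (EGFhigh 6 h), CFB at 8.98 CPM (Fc 72 h), CD46 at 322 CPM (EGFhigh 6 h) and CD59 at 666 CPM (untreated 72 h).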

How the results depend on the processing

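Counts of members called changed as follows, the main count being 0 for each single ligand in Kyse30 at 6 h and 1 for EGFhigh with EpEX. For EGFhigh, 1 member was called without the filter on low counts, 1 with the replicate block, 1 with only the 2 groups compared and 2 with DESeq2. For EGFlow and for EpEX, 1 was called with the replicate block and 1 with DESeq2. For EGFhigh with EpEX, 0 were called with only the 2 groups compared, and 0 to 1 without each library. From 6 h to 72 h, 2 members (CD55 and C3) were called without the filter in untreated and in Fc-treated cells, 2 with only the 2 groups compared (untreated) and 2 with the replicate block (Fc). In FaDu, EGFhigh at 6 h gave 1 member with only the 2 groups compared and 1 to 2 without each library, EGFlow 1 to 2 and EGFhigh with EpEX at 72 h 0 to 1. With all FaDu libraries, 0 members were called in the 5 FaDu comparisons, between the lines and for the change with time. Of all genes, 0 of 18533 were called in each FaDu comparison, 953 of 19519 between the lines and 0 of 19519 for the change with time. CD59 turned to -0.80, -0.64 and -1.12 (EGFhigh, EGFlow, EpEX), and between the lines C3 turned to -1.74 and CD59 to -0.23. The numbers also met the pairing rule in Kyse30 for untreated cells at 6 h against 0 h, Fc against untreated at 6 h and EGFhigh against EGFlow at 72 h, where the block left the count of members at 0, 0 and 2. In the remaining comparisons they were not shown to pair the libraries; there the block moved the C3 change with time to 2.25 under Fc (adjusted p = 0.0411) and 1.22 untreated (adjusted p = 0.361), and it changed no count of members by over 1.5 times beyond those named. Among the counts of members under alternatives, 34 moved by over 1.5 times and 202 did not. CD46 between the lines was called with RLE size factors, the block and DESeq2. Over all genes, calls for EGFhigh, EGFlow, EpEX and both ligands in Kyse30 at 6 h went from 391, 230, 4 and 694 to 636, 417, 48 and 1091 with the block, 673, 413, 83 and 1112 with DESeq2, 581, 399, 105 and 943 without the filter and 574, 359, 9 and 209 with only the 2 groups compared. Depth limits the precision for CFB, C1R, C1S and SERPING1, and 3-count floors lay between 0.241 and 1.54 CPM per library.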

Other observations

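Across the 21 FaDu libraries of replicates 1 and 2, CD55 was 8.09 to 62.4 CPM (median 27.2 CPM), against 15.4 to 317 CPM (median 118 CPM) in replicates 3 and 4. All 21 lay below every 0 h and 6 h library of replicates 3 and 4, which held 93.5 to 307 CPM when scaled without replicates 1 and 2. CD59 was 29.4 to 666 CPM (median 181 CPM) against 37.5 to 227 CPM. C3, C1R and C1S had medians of 2.14, 2.15 and 1.53 CPM against 0.160, 0.296 and 0.327 CPM. The summed fibroblast markers reached 3361 CPM in these libraries against 15.3 CPM in replicates 3 and 4, and the summed squamous epithelium markers went down to 252 CPM against 2694 CPM; their part in the levels of the complement genes was not tested.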
